A study of Mus musculus with 2 samples.

Results

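The mouse globin genes lie in 2 clusters, the alpha cluster on chromosome 11 (Hba-x, Hba-a1 and Hba-a2) and the beta cluster on chromosome 7 (Hbb-y, Hbb-bh1, Hbb-bh2, Hbb-bs and Hbb-bt). CTCF binding at both was taken from ChIP-seq peak lists of newborn heart as every peak summit from 100 kb before to 100 kb after the span of each cluster in the GENCODE M21 annotation (mm10). The list used was the optimal one, which passed the authors' filter on irreproducible discovery rate (IDR), a measure of how well ranked peaks repeat between libraries. This gave 20 of the 44533 optimal peaks, of which 15 were at the alpha and 5 at the beta cluster. Within that list only position and the gene annotation chose them, not their signal, though the IDR filter itself drops weak peaks.

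Whole heart of B6NCrl mice at postnatal day 0 was used, with no treatment named in the labels. The 2 libraries, replicate 1 and replicate 2, form 1 group and are numbered as biological replicates in the labels. They carry the same donor and tissue sample identifiers, however, and how far they differ may be technical only. Values over the libraries are therefore descriptions with n = 2, and no test between conditions exists. Whole heart holds blood as well as muscle, vessel and connective tissue cells, and CTCF peaks do not tell which cells they came from or whether a globin gene was transcribed.

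Haemoglobin is a tetramer of alpha-like and beta-like chains, and each cluster is read in order of development. Hba-x encodes the embryonic zeta chain, and Hba-a1 and Hba-a2 the adult alpha chain. Hbb-y and Hbb-bh1 encode embryonic beta-like chains, and Hbb-bs and Hbb-bt the adult ones. In red cell precursors the alpha genes are driven by enhancers upstream of the cluster, several of them in introns of the neighbouring gene Nprl3, and the beta genes by the locus control region upstream of Hbb-y. CTCF is a zinc finger protein that binds a directional sequence and, with cohesin, anchors chromatin loops. Sites facing each other (convergent) are the usual loop anchors, and CTCF sites flank both globin clusters in erythroid cells.

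Peaks are numbered here along globin transcription, so that alpha peak 1 and beta peak 1 lie farthest upstream. The alpha genes are on the plus strand (span 32276400 to 32297298, 20.9 kb) and the beta genes on the minus strand (span 103812524 to 103853216, 40.7 kb). A CTCF core, a match to the 14-base core consensus with at most 2 mismatches within 50 bp of the summit, was found at 13 of the 20 peaks, against 73.5% of all optimal peaks. The cores are shown because their direction and the copies among them are what the 2 clusters are compared by. Each line gives 30 bases of mm10, 5′ to 3′ on the strand of the core, with the core in capitals.
alpha peak 2 (chr11:32205099-32205128, plus strand, 2 mismatches): ggccccagGCAGCAGGAGGCGCccgcctcc
alpha peak 3 (chr11:32217024-32217053, plus strand, 1 mismatch): ataaatgaCCACGAGGTGGCGCcaactgcc
alpha peak 6 (chr11:32238647-32238676, minus strand, 1 mismatch): ccctgaggCCACCAGAGGGTAGcagaggcc
alpha peak 7 (chr11:32247256-32247285, plus strand, 1 mismatch): aaattggtCCACTGGGTGGCACttggaggc
alpha peak 9 (chr11:32286924-32286953, minus strand, 1 mismatch): acaagaggCCGCCAGGGGGCGCtgcatcgt
alpha peak 10 (chr11:32300029-32300058, minus strand, 1 mismatch): acaagaggCCGCCAGGGGGCGCtgcatcgt
alpha peak 11 (chr11:32321385-32321414, minus strand, 1 mismatch): tatagtggCCTGCAGGGGGCGCcccagaga
alpha peak 13 (chr11:32341284-32341313, minus strand, 1 mismatch): caatctctCCTGCAGGTGGCGCccttccgc
alpha peak 14 (chr11:32342934-32342963, plus strand, 1 mismatch): tacaccagCCTGCAGGGGGCACcatggaga
beta peak 1 (chr7:103942933-103942962, minus strand, 1 mismatch): agatgtgaCCAGGAGAGGGCAGcagagggt
beta peak 2 (chr7:103913170-103913199, minus strand, 1 mismatch): tagtgtagCCACCAGGGGGAAGgggtaacc
beta peak 4 (chr7:103807064-103807093, minus strand, 2 mismatches): tcagtcaaCCTCAAGGGGGCAGtattgagc
beta peak 5 (chr7:103793086-103793115, plus strand, 0 mismatches): gttgcataCCAGTAGGGGGCAGaagtgttc

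Of these 13 peaks, 1 had a core with 0 mismatches, 10 had 1 mismatch and 2 had 2 mismatches. The one without a mismatch, a class that holds 11.6% of all optimal peaks, was beta peak 5, among the weakest peaks of either cluster. Core middles lay 1.5 to 30.5 bp from the summit, with a median of 11.5 bp. The 13 peaks held 12 different cores, since alpha peaks 9 and 10 carried the same letters over all 30 bases shown. Among the 7 peaks without a core, 4 (alpha peaks 1, 5 and 12 and beta peak 3) had a signal above the median of the list, as 50% of the list does by definition. Alpha peak 5 was only just above it, at 60.86 against 60.83. The best matches of the 3 alpha peaks, with 3 mismatches, are shown in the same way.
alpha peak 1 (chr11:32182690-32182719, plus strand, 3 mismatches): acagatggACAGTAGAGGGAGAcagagatc
alpha peak 5 (chr11:32237201-32237230, minus strand, 3 mismatches): gaatggcgCCCCCAGTGGCCAGgcctcagt
alpha peak 12 (chr11:32324832-32324861, minus strand, 3 mismatches): gagtcccgCCACACGGGGGTGCtcgtcgcc

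The alpha cluster stood in dense CTCF binding and the beta cluster did not. The alpha window held 15 peaks in 220.9 kb, or 6.79 peaks per 100 kb, which is 2.54 times the 2.67 per 100 kb of chromosome 11. The beta window held 5 peaks in 240.7 kb, or 2.08 per 100 kb, close to the 1.97 per 100 kb of chromosome 7 at 1.05 times. The alpha density was 3.27 times the beta density. With replicate 1 left out, counted over as many of the strongest peaks of replicate 2 as the optimal list holds, the ratio was 3.54, and with replicate 2 left out it was 3.27. The annotation around the clusters differs as well. The alpha window holds 11 protein-coding genes, among them widely expressed ones such as Nprl3 and Mpg, and the beta window 18, of which 13 encode olfactory receptors.

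**Figure D1:**
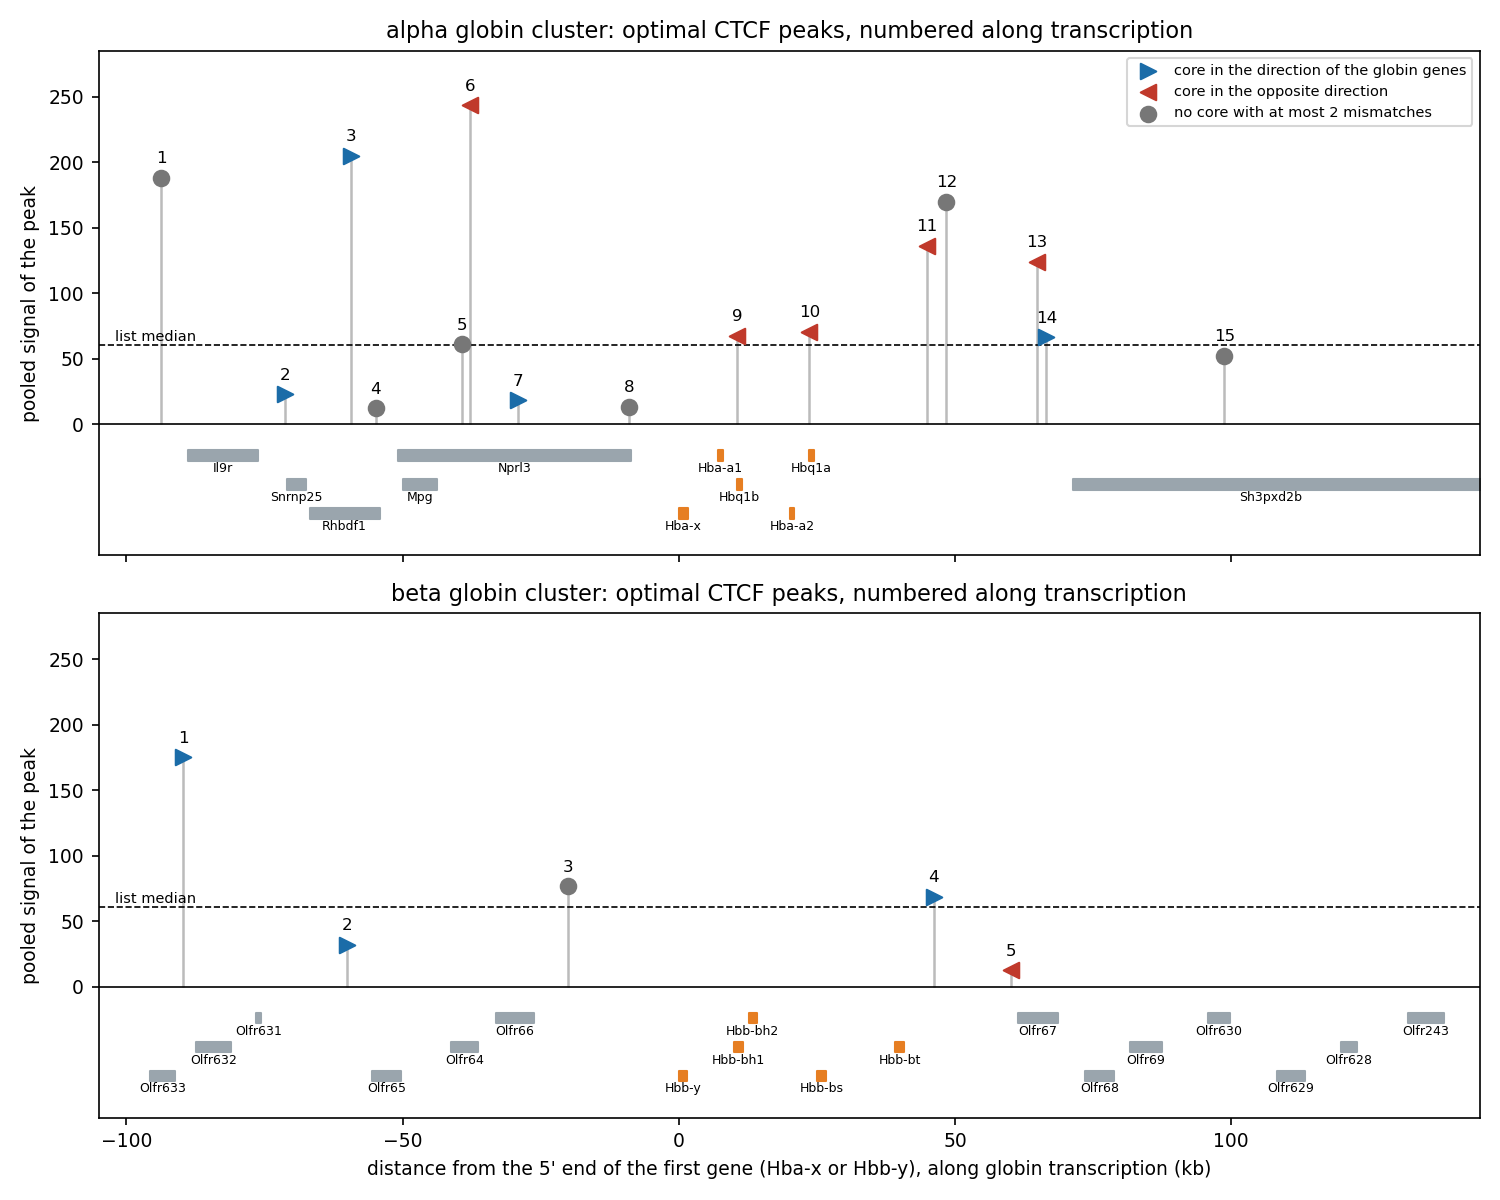
Optimal CTCF peaks at the alpha (top) and beta (bottom) globin clusters, by distance in kb along globin transcription from the 5′ end of the first gene (x) and pooled signal (y). Triangles point along the core, circles have no core, orange boxes are globin genes, grey boxes other protein-coding genes, and the dashed line is the list median of 60.8. Alpha peak 9 lies between Hba-a1 and Hba-a2, and the 5 Hbb genes lie in a stretch without a peak.

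Over all peaks of a cluster the median signal was close at the 2 clusters, while the medians of the flanks differed in opposite directions. Signal is the value that the authors' peak caller gave each peak, and its pooled form is close to the sum of both libraries. Its median was 67.5 at the alpha peaks (12.3 to 243) and 68.9 at the beta peaks (12.7 to 175), beside 60.8 over all optimal peaks. The log2 ratio of the alpha to the beta median was -0.029 in the pooled signal, -0.0045 in replicate 1 and 0.25 in replicate 2, so its sign differed between the libraries. Upstream of the genes the median pooled signal was 41.9 at 8 alpha peaks and 76.7 at 3 beta peaks, and downstream it was 97.3 at 6 alpha peaks and 40.8 at 2 beta peaks. These flank medians rest on few peaks and were not tested. Upstream alpha peaks 1, 3 and 6 had signals of 188, 205 and 243, above every beta peak. Alpha peaks 2, 4, 7 and 8 had 12.3 to 22.9, so the upstream alpha median is not typical of its peaks. Summed upstream signal was 764 over the 8 alpha peaks and 284 over the 3 beta peaks. Downstream it was 619 over 6 and 81.6 over 2. Signals above 100 were found at 6 of 15 alpha peaks and 1 of 5 beta peaks, against 34.1% of all optimal peaks. Signals under 25 were found at 4 alpha peaks and 1 beta peak, against 21.7%.

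Upstream of Hba-x the 8 peaks were a mixture of strong and weak ones. Alpha peak 1, between genes and 93.70 kb upstream of Hba-x, had a signal of 105 in replicate 1 and 85.5 in replicate 2 (95.1 ± 13.6, SD, n = 2). Alpha peak 3, in an exon of Rhbdf1, which encodes an inactive rhomboid protein, had 104.8 and 98.9 (101.8 ± 4.17, SD, n = 2). Both ranked in the top 10% of the list, at percentiles 90.9 and 94.0. The peaks beside them were weak. Alpha peak 2, 296 bp upstream of Snrnp25, a gene of the minor spliceosome, had 11.8 and 11.3 in the libraries. Alpha peak 4, 780 bp inside Rhbdf1 from its 5′ end, had 4.499 in replicate 2, and the nearest summit of replicate 1 lay 110 bp away with a signal of 7.76.

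Nprl3, which encodes a regulator of mTORC1 signalling and holds alpha globin enhancers in its introns, carried 4 peaks in its body. Alpha peak 6, in an Nprl3 intron 37.74 kb upstream of Hba-x, was the strongest peak of either cluster. It had a signal of 123 in replicate 1 and 120.7 in replicate 2 (121.7 ± 1.42, SD, n = 2), a pooled signal of 243 and rank 852 of 44533. Only 1.44 kb from it, in an exon of Nprl3, alpha peak 5 had 37.9 and 23.6 (30.7 ± 10.1, SD, n = 2). The strong and the weaker of this close pair did not overlap in any library. Toward the globin genes the signal was low. Alpha peak 7, in an intron 29.14 kb upstream of Hba-x, had 6.64 and 9.43, and alpha peak 8, 344 bp inside Nprl3 from its 5′ end and 9.04 kb upstream of Hba-x, had 7.18 and 4.25. Alpha peaks 7 and 8 were the only peaks between alpha peak 6 and Hba-x, and both were weak, at signal percentiles of 11.0 and 2.53.

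Between and just after the alpha genes CTCF sat at the 5′ ends of both theta genes, Hbq1b and Hbq1a, alpha-like genes that follow Hba-a1 and Hba-a2. The summit of alpha peak 9 lay 3 bp upstream of the 5′ end of Hbq1b, and that of alpha peak 10 lay 5 bp downstream of the 5′ end of Hbq1a. Their signals were 30.6 in replicate 1 and 34.9 in replicate 2 at Hbq1b (32.8 ± 3.06, SD, n = 2), and 39.9 and 28.9 at Hbq1a (34.4 ± 7.76, SD, n = 2). Which of them was higher differed between the libraries. They were the closest in sequence of all pairs of the 20 peaks: the 201 bp around the summits were 91.8% identical when aligned, with a shared run of 95 bases, against 57.1% for the next of 190 pairs and a median of 50.9%. Reads that match both copies cannot be placed by sequence, and how they were treated is not given in the sources used here, so the 2 peaks are not independent observations. Without both, 13 alpha peaks were left and the density ratio to the beta cluster was 2.83, a choice made after the data were seen.

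The adult alpha genes themselves had no peak at the promoter. Hba-a1 lay 3.45 kb from the nearest peak, at Hbq1b, and Hba-a2 lay 3.58 kb from the nearest, at Hbq1a. Hba-x had its nearest peak 9.04 kb upstream, the weak one at the start of Nprl3. Promoters here are the 300 bases from 250 before to 50 after the gene start in RefSeq (GRCm38.p6). Those of Hba-a1 and Hba-a2 were 98.0% identical, with a shared run of 297 bases, so a missing peak there cannot be told apart from reads that could not be placed.

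Downstream of the alpha genes 3 of the 6 peaks, alpha peaks 11, 12 and 13, had a pooled signal above 100. Alpha peaks 10 and 14 were near the list median, at 70.6 and 66.3, and alpha peak 15 was below it, at 52.0. Alpha peak 11, between genes and 24.09 kb beyond the end of Hba-a2, had a signal of 87.7 in replicate 1 and 46.6 in replicate 2 (67.2 ± 29.0, SD, n = 2), the widest difference between the libraries at any peak found in both. Alpha peak 12, 3.46 kb farther on, had 94.3 and 75.2 (84.8 ± 13.5, SD, n = 2). Alpha peak 13 had 66.7 and 58.3 (62.5 ± 5.98, SD, n = 2), and lay 6.54 kb upstream of Sh3pxd2b, a gene for a scaffold protein of podosomes. Alpha peak 14, 1.67 kb from alpha peak 13, had 39.2 in replicate 2, and in replicate 1 the nearest summit lay 140 bp away with 32.7. The last, alpha peak 15 in an intron of Sh3pxd2b, had 27.1 and 26.4.

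At the beta cluster 5 of 5 summits lay outside all gene bodies, as did 7 of 15 at the alpha cluster, beside 40.7% of all optimal peaks. With 5 beta peaks this difference was not tested. At the alpha cluster 5 peaks lay within 1000 bp of a gene 5′ end, where 14.1% of all optimal peaks lie, and no beta peak did. Beta peak 1, 89.73 kb upstream of Hbb-y and 1.49 kb upstream of the olfactory receptor gene Olfr633, was the strongest, with 98.0 in replicate 1 and 76.4 in replicate 2 (87.2 ± 15.3, SD, n = 2). Beta peak 2, 59.98 kb upstream of Hbb-y, had 17.7 and 13.5 (15.6 ± 2.97, SD, n = 2). Nearest to the genes on this side was beta peak 3, 20.04 kb upstream of Hbb-y, with 48.5 and 30.7 (39.6 ± 12.6, SD, n = 2). The 3 upstream peaks kept their order in both libraries, with no overlap.

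On the downstream side, beta peak 4 lay 5.45 kb beyond the end of Hbb-bt, with 40.0 in replicate 1 and 29.4 in replicate 2 (34.7 ± 7.47, SD, n = 2). It and beta peak 3, the peaks that bound the Hbb genes, had means that differed by less than the SD of either, beta peak 3 being the higher in both libraries. Beta peak 5, 19.45 kb beyond Hbb-bt and 1.26 kb upstream of Olfr67, was weak, with 4.48 and 6.62. The sequence under the bounding peaks was poor in G and C, at 30.3% over 201 bp at beta peak 3 and 37.8% at beta peak 4. Over all optimal peaks the median was 49.8%, with 52.7% at the alpha and 45.8% at the beta peaks. Beta peak 3 had no core, its best match having 4 mismatches, at a signal of 76.7.

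The strongest peak of each cluster and the one just past Hbb-bt are shown over 100 bases for the sequence around their cores. Letters are 5′ to 3′ on the strand of the core in mm10, with the core in capitals.
alpha peak 6 (chr11:32238612-32238711, minus strand): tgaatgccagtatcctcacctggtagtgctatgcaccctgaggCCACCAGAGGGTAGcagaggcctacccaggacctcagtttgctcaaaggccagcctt
beta peak 1 (chr7:103942898-103942997, minus strand): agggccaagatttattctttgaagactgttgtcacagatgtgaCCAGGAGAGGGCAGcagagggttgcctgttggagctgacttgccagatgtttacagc
beta peak 4 (chr7:103807029-103807128, minus strand): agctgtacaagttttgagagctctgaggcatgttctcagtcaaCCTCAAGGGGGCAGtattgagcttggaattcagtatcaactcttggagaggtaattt

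All 5 Hbb genes lay in 1 stretch without an optimal peak. From beta peak 3 to beta peak 4 this stretch measured 66.18 kb. Of all gaps between neighbouring optimal peaks 20.5% were at least as long, against a median gap of 20.8 kb. Such shares count each gap once, while long gaps cover more of the genome. They do not tell how common it is for a gene to lie in a gap that long. The relaxed pooled list of 300000 peaks, which includes background, held 2 peaks in it, with signals of 5.30 and 5.44. At the alpha cluster the genes were parted: Hba-x and Hba-a1 lay in a gap of 19.60 kb between alpha peaks 8 and 9, and Hba-a2 in a gap of 13.11 kb between alpha peaks 9 and 10. Gaps at least as long made up 51.6% and 61.8% of all gaps. This parting rests on alpha peaks 9 and 10, the theta gene peaks of near-identical sequence that are not independent observations. Without them all Hba genes would lie in 1 gap, from alpha peak 8 to alpha peak 11. It would join the gaps of 19.60 and 13.11 kb with the next one, of 21.31 kb. That joined gap would be the longest within the alpha window, though still shorter than that over the Hbb genes. With alpha peaks 9 and 10 kept, the longest gap within the alpha window, at 32.21 kb, was also shorter than that over the Hbb genes.

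**Figure D2:**
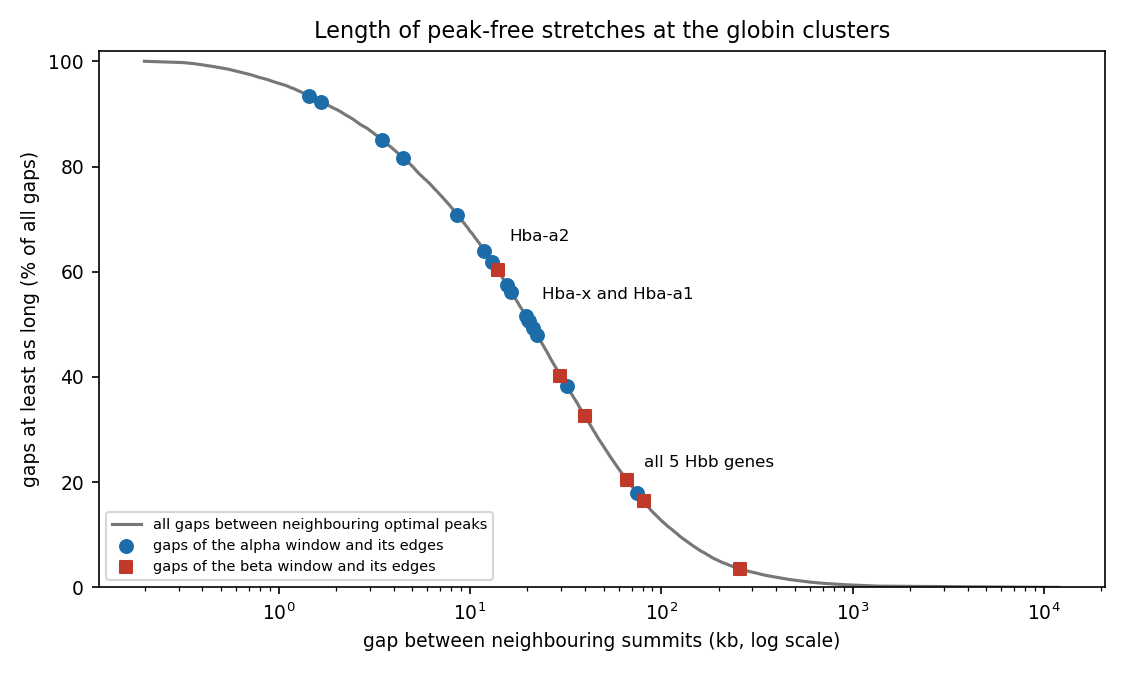
Gaps between neighbouring summits in and at the edges of the alpha (blue circles) and beta (red squares) windows: length in kb on a log axis (x) against the share of all gaps at least as long (y, grey curve for all gaps). The gap over the 5 Hbb genes, 66.18 kb, is longer than those over the Hba genes, 19.60 and 13.11 kb, which are bounded by the near-identical theta gene peaks.

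The cores of the 2 clusters pointed in different directions around the genes. At the alpha cluster 4 cores pointed along globin transcription (alpha peaks 2, 3, 7 and 14) and 5 against it (alpha peaks 6, 9, 10, 11 and 13). Of the cores upstream of Hba-x all but that of alpha peak 6 pointed toward the genes. Those from Hbq1b on, all but that of alpha peak 14, pointed against transcription. The core of alpha peak 9, inside the cluster, thereby pointed toward Hba-x and Hba-a1 but away from Hba-a2. The core-bearing peaks next to Hba-x and Hba-a1, alpha peaks 7 and 9, were thus convergent. Alpha peak 7 was weak, with a pooled signal of 18.2, and alpha peak 9 is a theta gene peak, not independent of alpha peak 10. The other convergent alpha pair, alpha peaks 3 and 6, lay wholly upstream of Hba-x. At the beta cluster the core-bearing peaks nearest to the genes on either side, beta peaks 2 and 4, both pointed along transcription. Beta peak 3, which lies nearer to the genes than beta peak 2, had no core and so no direction here. There 3 cores pointed along transcription (beta peaks 1, 2 and 4) and 1 against it (beta peak 5), so that the 1 convergent pair, beta peaks 4 and 5, lay wholly downstream of Hbb-bt. Of neighbouring core-bearing peaks, 2 of 8 pairs were convergent at the alpha cluster and 1 of 3 at the beta cluster. Pairs facing away from each other numbered 2 at the alpha and 0 at the beta cluster. These are too few to test and depend on the mismatches allowed, as do the directions above. With at most 3 mismatches, alpha cores pointing against transcription rose from 5 to 8. Upstream of Hba-x, the matches of alpha peaks 4 and 5 then pointed away from the genes, as did the core of alpha peak 6. The match of alpha peak 1 pointed toward them, as did the cores of alpha peaks 2, 3 and 7.

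Most of the 20 peaks were found in both libraries. A summit of each library lay within 100 bp at 13 of 15 alpha and 5 of 5 beta peaks, against 97.1% of all optimal peaks. The exceptions were alpha peaks 4 and 14, at which a peak of replicate 1 overlapped but had its summit 110 and 140 bp away. Replicate 2 was lower at 15 of the 18 peaks found in both, as at 74.3% of all such optimal peaks. As a log2 ratio, replicate 2 over replicate 1 was -0.20 in the median at the alpha and -0.39 at the beta peaks, beside -0.22 over all. The SD as a share of the mean of the libraries ran from 1.17% at alpha peak 6 to 43.2% at alpha peak 11, with a median of 18.3%. The conservative list, in which 89.4% of optimal peaks recur with exactly the same summit, held 13 of the alpha and 4 of the beta peaks by that match. It lacked alpha peaks 4 and 8 and beta peak 5, the 3 weakest.

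**Figure D3:**
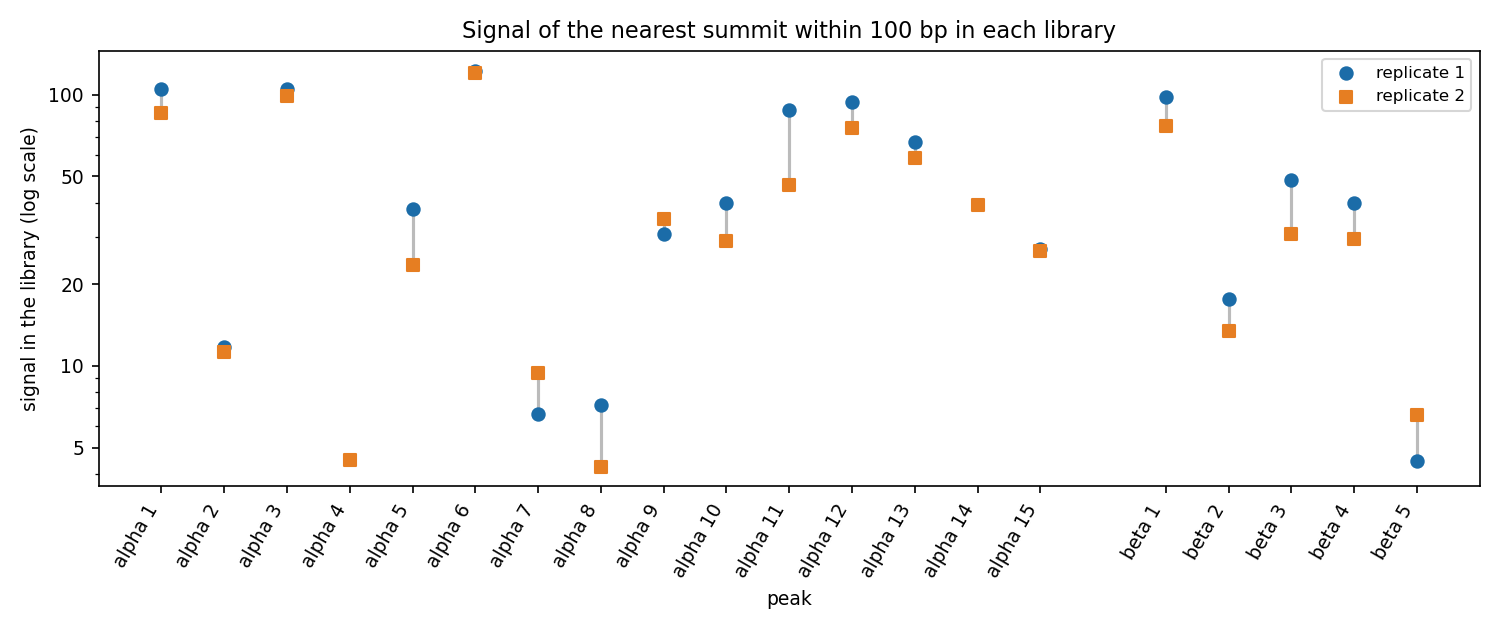
Signal of each globin cluster peak in replicate 1 (blue circles) and replicate 2 (orange squares) on a log axis, joined by a line where both libraries had a summit within 100 bp. Signals run from 4.25 to 123, and the libraries differ most at alpha peak 11 in absolute terms, at 87.7 and 46.6.

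Gene by gene, the Hba genes were closer to an optimal peak than most of the Hbb genes. For Hba-a1 and Hba-a2 this rests on the theta gene peaks, alpha peaks 9 and 10, which are not independent observations. For Hba-x it rests on the weak alpha peak 8, which the conservative list lacked. For 4 of the 8 globin genes (Hba-x, Hba-a1, Hba-a2 and Hbb-bt) the nearest peak was at most 10 kb from the 5′ end, which is close to the 50.3% of all protein-coding genes. With the conservative list it was 3 of the 8. Hbb-bt had its nearest peak at 6.92 kb, Hbb-y at 20.04 kb, Hbb-bs at 21.02 kb, Hbb-bh1 at 30.09 kb and Hbb-bh2 at 32.73 kb, where the median protein-coding gene had it at 9.85 kb. Within 100 kb of the 5′ end, Hba-x had 15 peaks and Hba-a1 and Hba-a2 had 14 each, and only 7.07% and 9.42% of protein-coding genes had as many. Hbb-y and Hbb-bh1 had 5, and Hbb-bh2, Hbb-bs and Hbb-bt had 4, where the median gene had 6. The genes of a cluster share their peaks and are not independent.

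**Figure D4:**
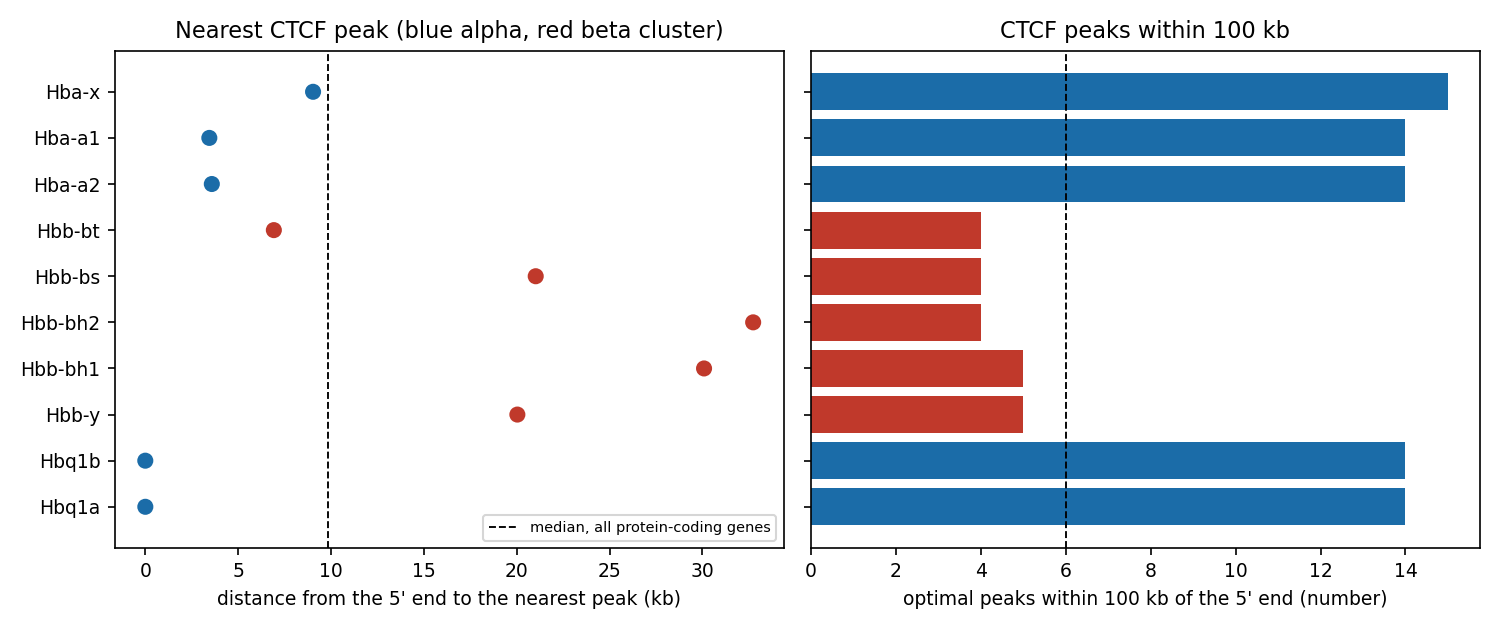
Distance from the 5′ end of each globin gene to the nearest optimal peak in kb (left) and number of optimal peaks within 100 kb of it (right), for the alpha (blue) and beta (red) clusters. Dashed lines are the medians of all protein-coding genes, 9.85 kb and 6 peaks, and all Hbb genes lie below the line on the right. The nearest peaks of Hba-a1 and Hba-a2 are the near-identical theta gene peaks.

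Olfactory receptor genes, which detect odours in the nasal epithelium, surround the beta cluster on both sides. Of the 13 in the window, 5 (Olfr67, Olfr65, Olfr632, Olfr633 and Olfr243) had an optimal summit no more than 10 kb from the 5′ end, against 6.61% of all 1135 olfactory receptor genes, and no peak lay in the body of any of the 13. The peak near Olfr243 lay outside the window, 330 bp beyond its downstream edge, with a signal of 19.7. Olfactory receptor genes had a median of 0 peaks within 100 kb of the 5′ end. The genes share peaks, so this was not tested.

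Promoters of the globin genes were also searched for the core in the RefSeq table. Of the 7 of 8 globin genes in the table, 1 (Hbb-bs) had a match with at most 2 mismatches, against 14.4% of 32851 promoters of the same length, and no optimal peak lay within 10 kb of it. Not in the table was Hbb-bh1. Both theta gene promoters had a match with 1 mismatch and were 95.3% identical over the 300 bases. A match is a description of letters and not a binding site.

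Other genes of the red cell were set beside the globin genes. Of 20 erythroid transcription factors and cofactors, 14 had a peak in this window of 10 kb, led by Zfpm1, the GATA1 cofactor FOG1 (signal 219.7), E2f4, a cell cycle factor (210.4), and Lyl1, a relative of Tal1 (203). Klf1, the activator of adult beta globin, had one at 1.27 kb (115). Bcl11a, a repressor of embryonic and fetal globin genes, had 3, the strongest at 3.05 kb (56.4). No peak lay in this window at Gata1, Lmo2, Zbtb7a, Nr2c2, Mafk or Foxo3 of the same list. Of 19 red cell membrane and other red cell protein genes 9 had one, among them the membrane skeleton genes Epb41 (156) and Epb42 (111). Of 16 haem synthesis, transport and breakdown genes 9 had one, led by Urod (206), Slc25a38 (147) and Ppox (98.8). Together 32 of 55 (58.2%) had a peak, beside the 50.3% of protein-coding genes given above. Of the other globin genes, Cygb, the cytoglobin gene, had its peak at 3.70 kb (41.4), while Mb, the myoglobin gene of heart muscle, and Ngb, the neuroglobin gene, had none within 10 kb.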

How the data were processed

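CTCF ChIP-seq of newborn heart was used as 5 narrowPeak lists, on mm10 per the labels. According to the text files deposited with them, the authors called 3 relaxed lists on replicate 1, replicate 2 and both together, each against a control alignment not used here, and derived the optimal and conservative lists by IDR. Which aligner and peak caller made them is not given in the sources used here. Signal is the deposited value of each peak and is the authors'. A q-value score is also deposited and was not used. Read depth is not given, so counting error is unknown.

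Summits are the peak start plus the deposited offset. A library's signal is that of its nearest relaxed summit within 100 bp. Sequence came from GRCm38.p6, in which all peaks ended within their chromosomes, and genes from GENCODE M21. Named by rule are the 8 globin genes, every peak in the windows and neighbours of the clusters. From each gene list the rule also takes the 3 members whose peaks within 10 kb were strongest. Klf1, Bcl11a, the erythroid factors without a peak, Mb, Ngb and olfactory genes were also named after values were seen. Of the listed genes, Ahsp matched no record. Of the genes this rule takes, 1 is not reported here. Members and lists were chosen with earlier results of these data known. Core search and summit matching were tested on simulated data. Tools were Python 3.11.15, pandas 2.3.3, pysam 0.24.0 and Biopython 1.88.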

Additional observations from a re-analysis of the deposited data

How the results depend on the processing

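Of the alternatives tried, 47 kept the direction of the result and stayed near its value. With a flank of 200 kb the alpha cluster had 25 peaks and the median signal of the beta peaks was 50.4. With a flank of 50 kb, or with signals at or above the list median, the beta cluster had 3. The density ratio of alpha to beta stayed above 1 in every setting, from 2.83 to 4.36. With either library left out, median signals were 34.9 to 39.9 at the alpha and 29.4 to 40.0 at the beta peaks, since signals of 1 library are smaller than pooled ones. The log2 ratio of the medians, -0.029, changed sign: it was -0.0045 to 0.25 with either library left out, 0.0036 with a flank of 50 kb and 0.40 with a flank of 200 kb. With at most 3 mismatches 8 alpha cores were on the minus strand. Of the globin genes, 2 had a peak within 5 kb and 8 within 50 kb, and of the erythroid genes 53 had one within 50 kb. No paired analysis was possible because there is 1 group.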

Other observations

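The relaxed pooled list, which keeps weak peaks that the IDR lists drop, differed between the clusters in the same direction as the optimal list. It held 55 peaks in the alpha window and 14 in the beta window, or 24.9 and 5.82 per 100 kb, beside 11.0 per 100 kb of the genome. Of these, 40 at the alpha and 9 at the beta cluster were outside the optimal list, with signals of at most 10.8 and 9.999. A summit of both libraries lay within 100 bp of 4 of the 40 and of 0 of the 9. None of the 40 lay between the start of Hba-x and the end of Hba-a2, and 1 of the 9 lay within the span of the Hbb genes, with a signal of 5.30.

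Next to the windows, the nearest optimal peak upstream of the alpha cluster lay 14.03 kb beyond the edge with a signal of 191, and the nearest downstream lay 53.0 kb beyond it with 138. At the beta cluster the nearest upstream peak lay 246.8 kb beyond the edge with a signal of 222, which leaves a gap of 257.1 kb after beta peak 1. Gaps at least that long made up 3.58% of all gaps, each counted once whatever its length.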
